A study of Homo sapiens with 12 samples.

Results

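ZRANB1 and 9 other deubiquitinases of the ovarian tumour (OTU) family were followed across the 4 groups of the study. The 10 genes were taken by symbol (ZRANB1, TNFAIP3, OTUD7B, OTUB1, OTUB2, OTUD1, OTUD4, OTUD5, YOD1 and VCPIP1), each had 1 row among the 24556 distinct symbols of the deposited table, and all 10 passed the filter that left 11929 genes for testing. RNA was sequenced from LM2 cells, a human breast cancer line derived from MDA-MB-231 and selected for lung metastasis. One pair of groups compared cells transduced with a short hairpin RNA (shRNA) against EZH2 with cells given a scramble shRNA. The other pair compared cells transfected with a small interfering RNA (siRNA) against ZRANB1 with cells given a scramble siRNA. Each group held 3 libraries of the same line, and the hairpin and siRNA sequences, the time after delivery and any selection of clones were not given in the sources used here.

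OTU deubiquitinases are cysteine proteases that remove ubiquitin from proteins, and family members differ in the ubiquitin chain linkages they prefer. ZRANB1, also called TRABID, cuts atypical chain linkages and has been reported to remove ubiquitin from EZH2, the histone methyltransferase of Polycomb repressive complex PRC2. TNFAIP3, also called A20, is an NF-kB target gene whose product shuts NF-kB signalling down again. The transcript level of a deubiquitinase does not give its protein level or its activity.

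Expression was given as FPKM, which divides a gene's fragments by the length of its transcript and by the size of the library. Levels were compared between genes and between groups on this scale, and 1 scaling factor per group was tried as an alternative. Differences were tested with limma on log2(FPKM + 1), and a gene was called at a Benjamini-Hochberg adjusted p below 0.05 over all 11929 genes. In each row the 3 values of a group stood in text order, so a value could be tied to a group but not to a library. The values below are therefore given in ascending order. Libraries of a group were not stated to be separate cultures, so p-values here reflect the scatter among these samples alone, and that scatter may be technical. Markers of the MDA-MB-231 lineage summed to 3862 to 4149 FPKM per group, of which VIM gave 2573 to 2836 FPKM. The other markers shifted in both directions between the controls. CD44 had 118 FPKM with the scramble siRNA and 264.5 FPKM with the scramble shRNA, while KRT8, KRT18, AXL and CAV1 were higher with the scramble siRNA. By contrast, 7 luminal markers summed to 10.5 to 14.7 FPKM, with PGR at 0 and ESR1 and CDH1 near it. Of these 7, 3 reached 1 FPKM, GATA3 at 3.70 to 6.75 FPKM, EPCAM at 3.53 to 8.23 FPKM and ERBB3 at 1.13 to 2.22 FPKM. Among leukocyte markers CD68 reached 34.4 to 41.7 FPKM, LYZ stayed under 1 FPKM, and PTPRC and CD3E were at or near 0.

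ZRANB1, the siRNA target, was examined first. Its values were 10.5, 11.5 and 12.1 FPKM with the scramble siRNA and 9.05, 9.49 and 11.5 FPKM in the libraries labelled ZRANB1 siRNA. Of the latter, 2 lay under the control range and 1 lay within it, so the groups overlapped. The mean was 88.2% of control, a log2 fold change of -0.17 (95% interval -0.42 to 0.076) with an adjusted p of 0.349. A level at 50% of control would give -0.89 on this scale, which lies outside that interval. A two-sided exact permutation test gave p = 0.2, where 3 values against 3 cannot go below 0.1. Lower ZRANB1 was thus not shown in these libraries, and directions below are those of libraries with the ZRANB1 siRNA label.

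With the scramble shRNA, ZRANB1 stood at 11.8, 12.9 and 14.2 FPKM, and with the EZH2 shRNA at 12.7, 13.4 and 16.4 FPKM. These groups overlapped as well, with a log2 fold change of 0.12 (95% interval -0.13 to 0.36) and an adjusted p of 0.61. The difference between the scramble siRNA and the scramble shRNA was of similar size, -0.18 (adjusted p = 0.211). ZRANB1 was at its highest mean with the EZH2 shRNA and its lowest with the ZRANB1 siRNA, a 1.42-fold range. The range on the log2 scale was at percentile 57.0 among tested genes. EZH2, the other target and a reported ZRANB1 substrate, had 34.2, 35.6 and 36.3 FPKM with the scramble shRNA and 16.1, 16.1 and 17.3 FPKM with the EZH2 shRNA. Its values were 46.5, 48.7 and 50.6 FPKM with the scramble siRNA and 28.3, 30.4 and 32.4 FPKM in the libraries labelled ZRANB1 siRNA. EZH2 transcript was therefore lower in both targeted groups than in their own controls, without overlap (log2 fold changes of -1.06 and -0.66, adjusted p of 1.34e-05 and 5.43e-05). The controls differed too, as EZH2 with the scramble siRNA was at 137% of its scramble shRNA mean. Limma called it higher there (log2 difference 0.45, adjusted p = 2.31e-04), beside 25.5% of all tested genes. The mean in the libraries labelled ZRANB1 siRNA was 30.4 FPKM, beside 35.4 FPKM with the scramble shRNA.

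**Figure D1:**
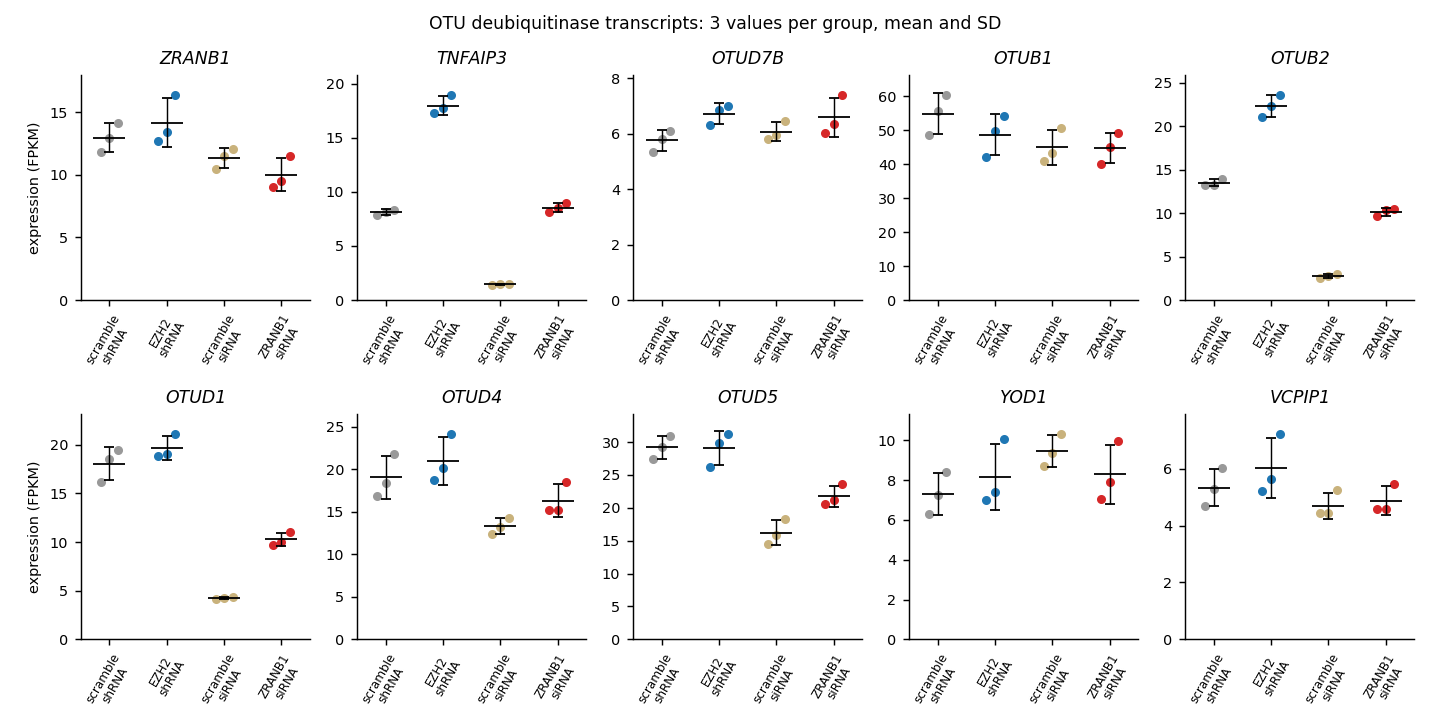
Expression (FPKM, linear axes from 0) of the 10 OTU deubiquitinase genes in the 4 groups, with the 3 values as points in ascending order, the mean as a long bar and the SD as whiskers (n = 3). TNFAIP3, OTUB2 and OTUD1 are far lower with the scramble siRNA than in the other groups, whereas the ZRANB1 values of the ZRANB1 siRNA group overlap those of its control.

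Among the 10 genes, 2 were called higher with the EZH2 shRNA and 0 lower, where 3.39% of all tested genes were called higher, 3.03% lower and 6.41% in either direction. These were TNFAIP3 and OTUB2, whose wide range across the study includes the EZH2 shRNA values, their highest. In the libraries labelled ZRANB1 siRNA, 4 were called higher and 0 lower, where 10.1% of all tested genes were called higher, 6.50% lower and 16.6% in either direction. These were TNFAIP3, OTUB2, OTUD1 and OTUD5. The median log2 fold change of the 10 genes was 0.13 with the EZH2 shRNA and 0.19 with the ZRANB1 siRNA, beside -0.014 and -0.017 over all tested genes. None of the 10 was lower at an unadjusted p under 0.05 in either comparison, that is 0 genes in each. The values of both groups did not overlap for 3 of the 10 genes with the EZH2 shRNA and for 5 with the ZRANB1 siRNA, beside 22.1% and 36.4% of all tested genes.

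TNFAIP3 moved the most. It stood at 7.82, 8.16 and 8.34 FPKM with the scramble shRNA and at 17.3, 17.7 and 18.9 FPKM with the EZH2 shRNA. Every value of the EZH2 shRNA group was above every control value, at 2.22 times the control mean (log2 fold change 1.06 with a standard error of 0.066, adjusted p = 1.07e-05). With the scramble siRNA the gene was low, at 1.37, 1.47 and 1.49 FPKM. It reached 8.10, 8.52 and 8.98 FPKM in the libraries labelled ZRANB1 siRNA, 5.91 times its control, and this was close to the level of the scramble shRNA group. The log2 fold change was 1.96 (standard error 0.066, adjusted p = 4.88e-09). A test of the difference between both effects gave 0.91 on the log2 scale, with an adjusted p of 8.71e-05. On this scale the rise was larger in the siRNA experiment, where the control level was lower. In FPKM the step was larger with the EZH2 shRNA, where the mean went from 8.11 to 17.97. In the siRNA experiment it went from 1.44 to 8.54. A log2 difference between both effects was called in the same direction for 3 of the 10 genes, beside 6.91% of all tested genes, and in either direction for 10.5%.

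OTUD7B, also called Cezanne, is another A20-like OTU deubiquitinase that acts on NF-kB signalling. Its values were 5.34, 5.82 and 6.11 FPKM with the scramble shRNA and 6.31, 6.85 and 7.01 FPKM with the EZH2 shRNA. The groups did not overlap, but limma made no call at a log2 fold change of 0.19 (95% interval 0.0083 to 0.38), with an adjusted p of 0.214. With the scramble siRNA OTUD7B had 5.81, 5.96 and 6.45 FPKM and in the libraries labelled ZRANB1 siRNA 6.02, 6.35 and 7.39 FPKM, which overlapped (adjusted p = 0.489). It had the narrowest range of the 10 genes, 1.17-fold between its highest and lowest group mean.

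The promoters of TNFAIP3, OTUB2 and OTUD1 are shown because these 3 genes had the widest ranges across the groups and were called higher together in the siRNA experiment. The sequences are from RefSeq on build GRCh38.p14, run 5′ to 3′ on the strand of the gene and span 250 bases before to 50 after an annotated start. They lie at chr6:137867009-137867308 on the plus strand for TNFAIP3, chr14:94026090-94026389 on the plus strand for OTUB2 and chr10:23438825-23439124 on the plus strand for OTUD1. Capitals mark matches to the NF-kB consensus of 10 letters on either strand.
TNFAIP3: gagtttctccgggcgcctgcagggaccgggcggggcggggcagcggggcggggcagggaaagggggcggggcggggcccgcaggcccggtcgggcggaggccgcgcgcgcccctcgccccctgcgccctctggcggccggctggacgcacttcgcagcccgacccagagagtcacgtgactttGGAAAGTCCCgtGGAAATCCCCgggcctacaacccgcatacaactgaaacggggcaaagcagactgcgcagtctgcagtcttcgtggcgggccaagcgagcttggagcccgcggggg
OTUB2: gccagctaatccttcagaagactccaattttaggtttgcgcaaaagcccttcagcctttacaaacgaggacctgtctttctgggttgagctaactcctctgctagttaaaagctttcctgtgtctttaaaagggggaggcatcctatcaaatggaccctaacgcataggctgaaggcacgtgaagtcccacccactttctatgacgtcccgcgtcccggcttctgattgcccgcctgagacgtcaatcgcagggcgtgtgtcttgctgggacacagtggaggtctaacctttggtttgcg
OTUD1: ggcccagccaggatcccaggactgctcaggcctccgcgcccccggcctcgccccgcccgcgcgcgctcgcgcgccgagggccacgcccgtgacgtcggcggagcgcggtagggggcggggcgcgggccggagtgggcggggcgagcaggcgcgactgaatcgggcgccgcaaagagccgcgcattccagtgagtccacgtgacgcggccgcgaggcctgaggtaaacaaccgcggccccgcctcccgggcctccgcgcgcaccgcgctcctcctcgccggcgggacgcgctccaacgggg

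The TNFAIP3 promoter held 2 matches to the NF-kB consensus, GGAAAGTCCC from base -67 to -58 and GGAAATCCCC from base -55 to -46, counted from the start with -1 as the last base before it. Promoters were found for 9 of the 10 genes, and TNFAIP3 was the 1 gene with such a match, where 7.09% of 27305 genes with such promoters and 5.91% of 35116 promoters held one. An AP-1 element (TGANTCA, either strand, without overlap with the NF-kB matches) was present for 2 genes, ZRANB1 and YOD1, against 9.37% of genes and 7.71% of promoters. No match says only that these letters are absent from the window, and a match is not evidence of binding. The promoters of the 9 genes ranged from 32.3% G and C (ZRANB1) to 79.3% (OTUD1), around a median of 58.7% over all promoters.

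The otubains differed from each other. OTUB2 had 13.2, 13.3 and 13.9 FPKM with the scramble shRNA and 21.1, 22.3 and 23.6 FPKM with the EZH2 shRNA, 1.66 times the control mean without overlap (log2 fold change 0.69, standard error 0.070, adjusted p = 2.71e-04). With the scramble siRNA it stood at 2.54, 2.80 and 2.95 FPKM, and in the libraries labelled ZRANB1 siRNA at 9.62, 10.4 and 10.5 FPKM. All of the latter lay above the control range, at 3.68 times its mean (log2 fold change 1.57, adjusted p = 4.05e-08). The rise was larger than that with the EZH2 shRNA by 0.88 on the log2 scale (adjusted p = 1.48e-04).

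OTUB1, which also blocks ubiquitin-conjugating E2 enzymes without cutting ubiquitin, was the most abundant of the 10 transcripts in every group. It had 48.6, 55.7 and 60.4 FPKM with the scramble shRNA and 42.2, 49.8 and 54.1 FPKM with the EZH2 shRNA, which overlapped (log2 fold change -0.17, 95% interval -0.44 to 0.093, adjusted p = 0.456). The scramble siRNA values of 41.0, 43.3 and 50.6 FPKM and the ZRANB1 siRNA values of 40.1, 45.1 and 49.2 FPKM spanned almost the same range. Their log2 difference was -0.0044, with a 95% interval from -0.27 to 0.26. Of 8 E2 enzymes that OTUB1 can bind (UBE2D, UBE2E and UBE2N genes), 0 were called by limma in either comparison, and 0 passed an unadjusted p under 0.05. Of all tested genes, 6.41% were called with the EZH2 shRNA and 16.6% with the ZRANB1 siRNA. Between the controls, 2 of the 8 were called higher and 1 lower in the scramble siRNA group, beside 25.5% and 25.1% of all tested genes.

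OTUD1, a deubiquitinase with reported roles in antiviral and TGF-beta signalling, separated the comparisons. Its values with the scramble shRNA, 16.2, 18.5 and 19.5 FPKM, overlapped those with the EZH2 shRNA, 18.8, 19.0 and 21.1 FPKM (log2 fold change 0.12, adjusted p = 0.448). With the scramble siRNA it stood at 4.10, 4.22 and 4.32 FPKM, and in the libraries labelled ZRANB1 siRNA at 9.736, 10.05 and 10.998 FPKM. That rise to 2.44 times control had a log2 fold change of 1.11 (standard error 0.081, adjusted p = 2.87e-06), and it exceeded the difference in the EZH2 comparison by 0.99 (adjusted p = 1.81e-04).

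OTUD5, known for trimming ubiquitin from TRAF3 and for a role in chromatin regulation during development, had 14.5, 15.9 and 18.3 FPKM with the scramble siRNA. It had 20.5, 21.2 and 23.6 FPKM in the libraries labelled ZRANB1 siRNA, all above the control range. The log2 fold change was 0.40 (standard error 0.097, adjusted p = 0.0151), and without the lowest control value or the highest value of the ZRANB1 siRNA group the adjusted p was 0.0511 and 0.0509. With the EZH2 shRNA the values of 26.2, 29.9 and 31.2 FPKM overlapped the control values of 27.4, 29.3 and 30.9 FPKM (log2 fold change -0.0078, 95% interval -0.22 to 0.21). The difference between both effects, 0.41, was not called, with an adjusted p of 0.0865.

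OTUD4, which binds RNA and scaffolds other deubiquitinases, showed a smaller difference in the siRNA experiment. It had 12.4, 13.2 and 14.3 FPKM with the scramble siRNA and 15.2, 15.3 and 18.5 FPKM in the libraries labelled ZRANB1 siRNA. The values did not overlap, but limma made no call at a log2 fold change of 0.27 (95% interval 0.010 to 0.54, adjusted p = 0.153). With the EZH2 shRNA it had 18.7, 20.1 and 24.1 FPKM against 16.9, 18.4 and 21.8 FPKM, which overlapped (adjusted p = 0.572).

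YOD1 and VCPIP1 work with VCP, the ATPase that extracts ubiquitinated proteins from membranes and complexes. YOD1 ranged from 6.28 to 8.40 FPKM with the scramble shRNA, 6.999 to 10.08 FPKM with the EZH2 shRNA, 8.70 to 10.3 FPKM with the scramble siRNA and 7.04 to 9.94 FPKM in the libraries labelled ZRANB1 siRNA. VCPIP1 ranged from 4.70 to 6.01, 5.22 to 7.21, 4.44 to 5.24 and 4.58 to 5.46 FPKM in the same order of groups. Neither gene was called in either comparison (adjusted p from 0.472 to 0.867), and within each comparison the groups overlapped. Of 15 genes for VCP and its cofactors, 1 rose and 1 fell with the EZH2 shRNA, beside 3.39% and 3.03% of all tested genes. UBXN7 rose from 8.62 ± 0.728 to 11.6 ± 0.430 FPKM (SD, n = 3), and VCP itself fell from 166 ± 3.64 to 136 ± 5.21 FPKM (SD, n = 3). In the libraries labelled ZRANB1 siRNA, VIMP and NSFL1C were called higher and FAF2 lower, with log2 fold changes of 0.28, 0.28 and -0.36. Of all tested genes, 10.1% were called higher and 6.50% lower there. Between the controls, 2 of the 15 were called higher and 5 lower in the scramble siRNA group, beside 25.5% and 25.1% of all tested genes.

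**Figure D2:**
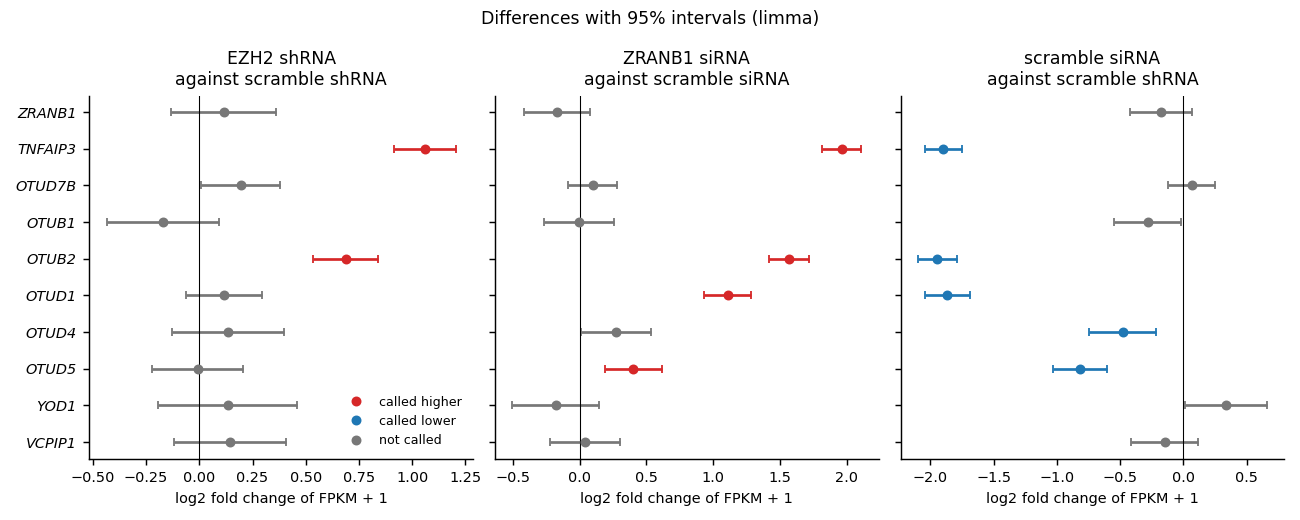
Log2 fold changes of FPKM + 1 for the 10 genes with 95% intervals from limma in 3 comparisons, one panel each; the x axes differ in range, red marks genes called higher, blue genes called lower and grey genes not called. TNFAIP3 lies at 1.06, 1.96 and -1.90 from left to right, and the second and the third panel share the scramble siRNA values.

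Both scramble controls were themselves compared, since a rise in the libraries labelled ZRANB1 siRNA is read against the scramble siRNA. Of the 10 genes, 5 were called lower in the scramble siRNA group and 0 higher, where 25.1% of all tested genes were called lower, 25.5% higher and 50.6% in either direction. Values did not overlap for 6 of the 10, the 5 called and YOD1, beside 59.9% of tested genes. OTUB2 was at 20.5% of its scramble shRNA mean, TNFAIP3 at 17.8%, OTUD1 at 23.3%, OTUD5 at 55.6% and OTUD4 at 69.9%. The log2 differences were -1.95, -1.90, -1.87, -0.81 and -0.48, with adjusted p of 2.17e-09, 1.84e-09, 9.91e-09, 3.40e-05 and 0.00574. OTUB1 (-0.28, adjusted p = 0.0702) and YOD1 (0.33, adjusted p = 0.0809) were not called. This comparison and that of the ZRANB1 siRNA share the scramble siRNA libraries. The controls differ in delivery, and delivery and any other difference between these groups cannot be told apart. Of 5 fibroblast markers COL1A1 alone reached 1 FPKM, and the list summed to 25.4 FPKM with the scramble shRNA, 20.1 with the EZH2 shRNA, 8.83 with the scramble siRNA and 17.8 with the ZRANB1 siRNA, with COL3A1 and LUM at 0 in the scramble siRNA group. Of 3 endothelial markers PECAM1 alone reached 1 FPKM, and the list summed to 0.345 to 1.63 FPKM, lowest with the scramble siRNA. Their part in these differences was not tested.

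As a description, the mean of the libraries labelled ZRANB1 siRNA lay between the means of both scramble controls for 6 of the 10 genes, against 68.1% of all tested genes. OTUB2 stood 69.0% of the way from the scramble siRNA to the scramble shRNA level, OTUD4 52.7%, OTUD1 43.6%, OTUD5 42.5% and VCPIP1 27.1%. YOD1 stood at 54.1%, in the downward direction, since its scramble siRNA mean was the higher of both controls. TNFAIP3 stood at 106%, just past the scramble shRNA mean. ZRANB1 did not lie between the control means, since its mean in these libraries was the lowest of the study. OTUB1 and OTUD7B did not lie between theirs either.

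Levels ordered the 10 genes in much the same way at the top and differently below it. OTUB1 and then OTUD5 led in every group, without overlap between their values or with the gene ranked next. With the scramble siRNA, OTUB1 had a mean of 44.9 FPKM, and OTUD5 (16.2), OTUD4 (13.3), ZRANB1 (11.4), YOD1 (9.46), OTUD7B (6.07), VCPIP1 (4.71), OTUD1 (4.21), OTUB2 (2.76) and TNFAIP3 (1.44) followed, no neighbours overlapping. With the EZH2 shRNA, OTUB2 (22.3 FPKM), OTUD4 (21.0), OTUD1 (19.6) and TNFAIP3 (17.97) held ranks 3 to 6, each overlapping the next, and ZRANB1 (14.2) came after them. TNFAIP3 thus went from the last of the 10 with the scramble siRNA to rank 6 with the EZH2 shRNA and rank 7 in the other groups.

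With the scramble shRNA, OTUD4 overlapped OTUD1, OTUB2 overlapped ZRANB1, TNFAIP3 overlapped YOD1 and OTUD7B overlapped VCPIP1. In the libraries labelled ZRANB1 siRNA, OTUD1, OTUB2 and ZRANB1 had means of 10.3, 10.2 and 10.0 FPKM with overlapping values. TNFAIP3, YOD1 and OTUD7B overlapped in turn at 8.54, 8.30 and 6.59 FPKM.

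The group means of the 10 genes summed to 174 FPKM with the scramble shRNA, 194 FPKM with the EZH2 shRNA, 114 FPKM with the scramble siRNA and 142 FPKM in the libraries labelled ZRANB1 siRNA. OTUB1 gave 39.3% of that sum with the scramble siRNA and 25.1% with the EZH2 shRNA. TNFAIP3 gave 1.26% and 9.27% in these groups, and OTUB2 gave 2.41% and 11.5%. ZRANB1 gave between 7.07% and 9.92% in the 4 groups. No error is given for a sum, because values could not be assigned to libraries.

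**Figure D3:**
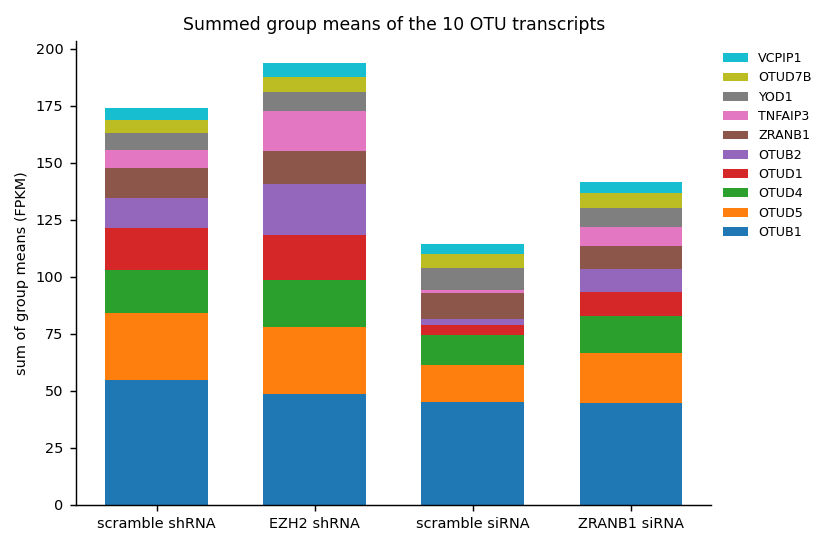
Stacked group means (FPKM, linear axis from 0, n = 3 per mean) of the 10 OTU transcripts in the 4 groups, with no error bars because values could not be traced to libraries. The bars for OTUB2, OTUD1 and TNFAIP3 are thin with the scramble siRNA, where the sum is 114 FPKM, and wide with the EZH2 shRNA, where it is 194 FPKM.

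Other OTU family genes were examined next. Of 7, OTUD6A and OTUD7A had group means of at most 0.184 FPKM and were not tested. With the EZH2 shRNA 0 of the 5 tested genes were called by limma, beside 6.41% of all tested genes, and 0 passed an unadjusted p under 0.05. Of the 5, 1 was called in the libraries labelled ZRANB1 siRNA, beside 16.6% of all tested genes. This gene was ALG13, whose product carries an OTU domain beside its glycosyltransferase part. It had 4.42, 4.58 and 5.89 FPKM with the scramble siRNA and 6.75, 7.41 and 8.82 FPKM with the ZRANB1 siRNA (log2 fold change 0.54, adjusted p = 0.0163). Against the scramble shRNA, where it had 8.76, 10.7 and 11.7 FPKM, its scramble siRNA level was lower as well.

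OTULIN, which cuts linear ubiquitin chains, had means of 6.15 and 6.57 FPKM with the scramble and EZH2 shRNA and of 5.98 and 6.43 FPKM with the scramble and ZRANB1 siRNA, and was not called in either comparison (adjusted p of 0.653 and 0.56). OTUD3 had means from 5.28 to 5.84 FPKM and OTUD6B from 10.1 to 11.8 FPKM. FAM105A, a catalytically inactive relative of OTULIN, was low, from 1.18 to 2.15 FPKM. It was the 1 gene of these called higher in the scramble siRNA group against the other control (log2 difference 0.53, adjusted p = 0.00402). Of all tested genes, 25.5% were called higher there.

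Genes that work with the A20 protein were then compared. TNIP1, TNIP2 and TNIP3 encode adaptors that bind A20, and TAX1BP1, ITCH and RNF11 encode its partners in editing ubiquitin chains. Of these 6, 1 fell and 0 rose with the EZH2 shRNA, beside 3.03% and 3.39% of all tested genes. The gene that fell was TNIP3, from 2.197, 2.237 and 2.954 FPKM to 1.287, 1.344 and 1.501 FPKM (log2 fold change -0.54, adjusted p = 0.0152). This was opposite in sign to TNFAIP3 in the same comparison. In the libraries labelled ZRANB1 siRNA 3 rose and 0 fell, beside 10.1% and 6.50% of all tested genes. TNIP1 rose from 54.2 ± 4.39 to 108 ± 12.4 FPKM (SD, n = 3), TNIP2 from 14.1 ± 1.94 to 19.1 ± 2.24 FPKM and TNIP3 from 0.0511 ± 0.0226 to 0.636 ± 0.0222 FPKM. Every TNIP3 value in both siRNA groups was under 1 FPKM, so its rise there is a difference between low values. Its average over all groups reached the filter level only through the shRNA groups, whose means were 2.46 (scramble) and 1.38 (EZH2). Between the controls, all 6 partners had the lower mean in the scramble siRNA group. Of these, 5 were called, TNIP3 among them, beside 25.1% of all tested genes called lower.

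Genes listed as NF-kB feedback targets, which like TNFAIP3 are induced by NF-kB, differed between the comparisons. They include inhibitors of NF-kB but also targets such as ICAM1 and CXCL2, so not every one is a feedback regulator. The list was chosen with earlier results of these data known, so its counts are descriptions and not independent support for a pattern. Of 13 tested genes, 1 rose and 0 fell with the EZH2 shRNA, beside 3.39% and 3.03% of all tested genes. The gene that rose was ICAM1, from 39.1 ± 1.91 to 69.2 ± 2.97 FPKM. The median log2 fold change of the 13 was -0.038, beside 1.06 for TNFAIP3. All 13 rose in the libraries labelled ZRANB1 siRNA, where 10.1% of all tested genes were called higher. Their median was 1.02, with a range from 0.34 to 2.67. CXCL2 rose from 1.36 ± 0.423 to 13.9 ± 1.52 FPKM, TRAF1 from 0.294 ± 0.0618 to 2.30 ± 0.0591 FPKM and NFKBIA, the inhibitor IkB-alpha, from 18.2 ± 0.113 to 47.6 ± 0.519 FPKM. Between the controls all 13 were called lower in the scramble siRNA group, around a median of -1.68, beside 25.1% of all tested genes called lower. For NFKBIA the effects in both experiments differed by 1.51 on the log2 scale, with an adjusted p of 6.51e-07, and its log2 fold change with the EZH2 shRNA was -0.16 (adjusted p = 0.140).

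Genes of ubiquitin signalling to NF-kB, among them the linear chain ligase genes RNF31, RBCK1 and SHARPIN and the deubiquitinase gene CYLD, were compared as well. Of 16 tested, 1 rose and 0 fell with the EZH2 shRNA, beside 3.39% and 3.03% of all tested genes. The gene that rose was TRAF3, from 12.5 ± 1.25 to 16.7 ± 1.06 FPKM. Beside 10.1% of all tested genes called higher and 6.50% lower, 4 rose and 0 fell in the libraries labelled ZRANB1 siRNA. These were TRAF3 (from 6.71 ± 0.270 to 11.1 ± 0.545 FPKM), BIRC3 (3.20 ± 0.466 to 6.69 ± 1.13), IKBKG (13.6 ± 0.650 to 20.2 ± 2.93) and BIRC2 (47.0 ± 3.61 to 62.996 ± 6.789). TRAF3 is a reported substrate of OTUD5 and OTUD7B. Between the controls, 2 of the 16 were called higher and 9 lower in the scramble siRNA group around a median of -0.34, with BIRC3 at -1.93 and IKBKG at -0.93. Of all tested genes, 25.5% were called higher and 25.1% lower there.

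Other parts of the ubiquitin system were counted in the same way. Of all tested genes, 3.39% were called higher and 3.03% lower with the EZH2 shRNA. In the libraries labelled ZRANB1 siRNA these shares were 10.1% and 6.50%, and between the controls 25.5% and 25.1%. Of 16 tested deubiquitinases of families other than OTU and USP, 0 were called with the EZH2 shRNA by limma, with 2 lower and 0 higher at an unadjusted p under 0.05, and 1 rose in the libraries labelled ZRANB1 siRNA, where 4 were higher and 0 lower at an unadjusted p under 0.05. The gene called was BRCC3, which cuts chains in DNA repair and inflammasome complexes, from 9.05 ± 0.559 to 12.3 ± 0.841 FPKM. Their median log2 fold changes were -0.027 and -0.0081, against 0.13 and 0.19 for the 10 OTU genes, and this difference between lists was not tested. Between the controls, 1 of the 16 was called higher and 6 lower in the scramble siRNA group, BRCC3 at a log2 difference of -0.88. Of 6 ubiquitin precursor and E1 genes, UBA1 alone was called in the comparisons with the targeted groups, at 92.1 ± 5.54 FPKM with the scramble siRNA and 118 ± 8.36 FPKM with the ZRANB1 siRNA. Between the controls, 3 of these 6 were called higher and 2 lower in the scramble siRNA group. Among genes for reported ZRANB1 partners and clients, EZH2 was called in both comparisons, while APC and UVRAG were not called in either.

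**Figure D4:**
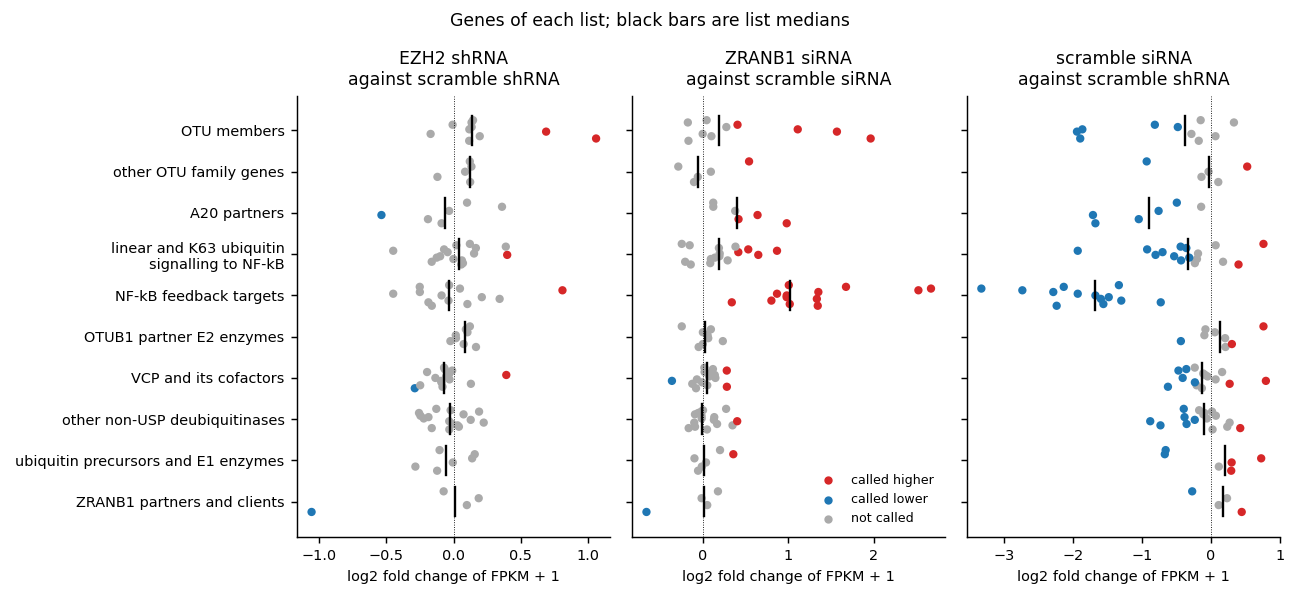
Log2 fold changes of FPKM + 1 for the tested genes of each list in 3 comparisons, with 1 point per gene, black bars at list medians, red for genes called higher, blue for genes called lower and grey for genes not called. The genes listed as NF-kB feedback targets lie around -0.038 with the EZH2 shRNA, 1.02 in the libraries labelled ZRANB1 siRNA and -1.68 in the comparison of both controls. TNFAIP3 and OTUB2 are the OTU genes called higher with the EZH2 shRNA.

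Genes with the most similar profile were sought by the root mean square distance between group means on the log2(FPKM + 1) scale, each gene centred on its own mean over the 4 groups. For TNFAIP3 these were PI3 (0.096), DNER (0.10), TNFSF15 (0.14), ADAMTS9 (0.17) and ANGPTL4 (0.19). DNER, for example, had means of 12.8 and 24.7 FPKM with the scramble and EZH2 shRNA and of 2.08 and 12.9 FPKM with the scramble and ZRANB1 siRNA. For OTUB2 they were ADAMTS9 (0.044), GNAO1 (0.075), PID1 (0.084), SPOCK1 (0.085) and IL32 (0.11). ZRANB1 came closest to SORBS2 (0.033), LINC01000, GLTSCR1, PIGP and THBS3 (0.040). The distances are descriptions over 4 group means. This scale understates changes of low genes, so a close neighbour can differ in fold change. ADAMTS9 had means of 0.228 FPKM with the scramble siRNA and 6.89 FPKM with the EZH2 shRNA, where OTUB2 had 2.76 and 22.3 FPKM.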

How the data were processed

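RNA-seq of 12 LM2 libraries, 3 in each of 4 groups, was deposited as 1 table of FPKM values that the authors made; TopHat2 2.1.1, SAMtools, Cufflinks 2.2.1, Cuffdiff 2.2.1 and build hg19 are named in the submitters' processing notes. Read counts were not used here, so depth is unknown. Columns were matched to groups by name. Values within a group stood in ascending text order in each row with 3 different values, so no column was treated as 1 library. For 440 symbols listed more than once, the most highly expressed row was used.

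The 11929 genes averaging 1 FPKM or more entered limma 3.58.1 in R 4.3.3, on log2(FPKM + 1), a scale that understates changes of low genes. All 4 groups shared 1 fit with an intensity trend and 8 residual degrees of freedom, and p-values were adjusted by Benjamini-Hochberg over all tested genes. The procedure was tested on simulated data. The 10 genes and all lists were chosen with earlier results of these data known. The text names the 10 genes, the other OTU genes, EZH2, up to 4 called genes of each list and comparison by lowest adjusted p, and 5 profile neighbours of ZRANB1, TNFAIP3 and OTUB2. Genes can stand in more than 1 list. Alternatives were another pseudocount, other filters, no trend, summed rows, 1 scaling factor per group, fits on 6 values and leaving out each value.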

Additional observations from a re-analysis of the deposited data

Results flagged for a closer look

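For 3 genes the change in the libraries labelled ZRANB1 siRNA differed from the change with the EZH2 shRNA by a test of the difference itself (limma, adjusted over all tested genes, 3 values per group). TNFAIP3 rose by 0.91 more on the log2 scale (adjusted p = 8.71e-05). For OTUB2 the difference was 0.88 (adjusted p = 1.48e-04). For OTUD1 it was 0.99 (adjusted p = 1.81e-04). In each, all 3 values of the ZRANB1 siRNA group lay above all 3 of its control, and 10.5% of all tested genes were called for such a difference in either direction. In FPKM the step between means was larger with the EZH2 shRNA for TNFAIP3 and OTUB2, and larger with the ZRANB1 siRNA for OTUD1. With the scramble siRNA, TNFAIP3, OTUB2 and OTUD1 stood at 17.8%, 20.5% and 23.3% of their scramble shRNA means. Each experiment was read against its own control, and the part of these low control levels in the differences was not tested.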

How the results depend on the processing

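For the 10 genes, 570 values were recomputed under alternatives, and 556 kept their direction and side of the threshold. The calls of TNFAIP3 and OTUB2 in both comparisons and of OTUD1 in the libraries labelled ZRANB1 siRNA held under all 13 alternatives. The sizes moved more, with TNFAIP3 at 1.93 to 2.48 in the libraries labelled ZRANB1 siRNA. Its difference of both effects went from 0.87 to 1.35, that of OTUB2 from 0.84 to 1.12 and that of OTUD1 from 0.94 to 1.14. Each value that changed sign had not been called. With the EZH2 shRNA, leaving out 1 value gave -0.058 to 0.063 for OTUD5 (0.032 without the highest control value) and -0.011 to 0.22 for YOD1. With the ZRANB1 siRNA it gave -0.073 to 0.082 for OTUB1 (0.071 without the lowest treated value) and -0.027 to 0.11 for VCPIP1, and OTUB1 stood at 0.017 with 1 scaling factor per group. The difference of both effects for VCPIP1 went from -0.18 to 0.016. Genes called higher with the EZH2 shRNA numbered 404, but 260 with a filter at 5 FPKM, 104 when only the 6 values of the groups compared were fitted and 230 to 329 when 1 value per gene was left out. Genes called lower numbered 361, but 81 and, leaving out values, 187 to 307. The 5 FPKM filter, which tests fewer genes, gave 268 in place of 427 for a lower difference of effects. Leaving out 1 value gave 929 to 959 higher and 454 to 504 lower calls with the ZRANB1 siRNA, against 1210 and 775. Of the 10 genes, 3 to 4 were then called higher with the ZRANB1 siRNA, 3 to 4 for a larger effect there, and 0 to 1 higher and 5 to 6 lower between the controls. YOD1 was called at 0.43 (adjusted p = 0.0480) without the highest scramble shRNA value. OTUB1 was called at -0.37 without the lowest scramble shRNA value or the highest scramble siRNA value. The cause was not tested. No paired analysis was possible because values could not be tied to libraries or replicate numbers.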
